A study of Caenorhabditis elegans with 2 samples.

Results

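The cuticlin family of the nematode Caenorhabditis elegans was described in whole-animal RNA sequencing of a daf-2 (e1370);daf-12(m20) double mutant. The family was taken as every gene of the deposited table named cut or cutl with a number, which gave 33 of 19874 genes analysed, 6 named cut and 27 named cutl (cuticlin-like). The gene cutl-8 is listed only by coordinates and so is no member, and cutl-19 was not analysed here. The strain carries an allele of daf-2, which encodes an insulin-like receptor, and an allele of daf-12, a nuclear hormone receptor gene that acts in the decision to form a dauer larva. Both samples came from worms of this genotype, fed on OP50 bacteria at 20 °C and collected as a mixed-stage culture, and they are replicates 1 and 2 of 1 group. Wild type and single mutants were not analysed here, so a level below says nothing of the effect of the mutations. Nothing in the labels places the replicates in separate cultures, and their spread can thus be technical.

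Cuticlins are named for the fraction of the worm cuticle that stays insoluble after the collagens have been dissolved, because its proteins are held together by cross-links other than disulfide bonds, among them dityrosine. Most known cuticlins carry a zona pellucida (ZP) domain, a module that lets secreted proteins assemble into filaments or sheets outside the cell. ZP cuticlins are best known from the alae, the lengthwise cuticle ridges made over the seam cells of the epidermis in the first larval stage, in the dauer larva and in the adult. A cuticle is built anew at each molt, so transcripts of its parts rise and fall with the molting cycle, and a mixed-stage culture averages over those phases.

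The authors' values are RPKM, in which reads are divided by a length of the gene and by library size, so levels can be compared between genes. Coding length matched the values better than exonic length, as set out below. Where 2 values are given for a gene, the first is replicate 1 and the second replicate 2. Library depths, read from the spacing of low RPKM values, were about 10570000 and 14652000 reads. Together the 33 cuticlins held about 1776 and 2619 reads, and 20 of them had fewer than 100 reads over both replicates. Intervals below are exact Poisson 95% intervals of these read numbers and cover counting error only. In RNA from whole animals, fewer cells of a type and less RNA per cell cannot be told apart.

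As a family the cuticlins were low. Their median was 1.76 and 1.63 RPKM in the replicates, where the median of all genes was 6.21 and 6.13 RPKM. A mean of at least 1 RPKM was reached by 21 of the 33 members (63.6%), beside 72% of all genes, and a mean of at least 10 RPKM by 3 members (9.09%), beside 42% of all genes. Thus 29 of the 33 lay under the median gene and 4 at or above it, and none reached 100 RPKM. Summed RPKM of the family made up 0.0137% and 0.0146% of that of all genes.

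Among other families that build or cut cuticle proteins, the collagens had higher levels. The astacins had medians close to those of the cuticlins, but a higher upper quartile. The 154 cuticle collagen genes named col, which encode the bulk of the soluble cuticle, had medians of 50.5 and 53.4 RPKM, and a mean of at least 10 RPKM was reached by 100 of them. The 32 astacin genes named nas, which encode secreted metalloproteases, several of them acting on the cuticle, had medians of 2.06 and 2.28 RPKM, and 62.5% were at a mean of at least 1 RPKM, beside 63.6% of the cuticlins. A mean of at least 10 RPKM was reached by 6 astacins (18.8%), beside 9.09% of the cuticlins. The upper quartile of the means was 6.51 RPKM for the astacins and 3.73 RPKM for the cuticlins. With 1 group of samples, comparisons between families have no test.

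**Figure D1:**
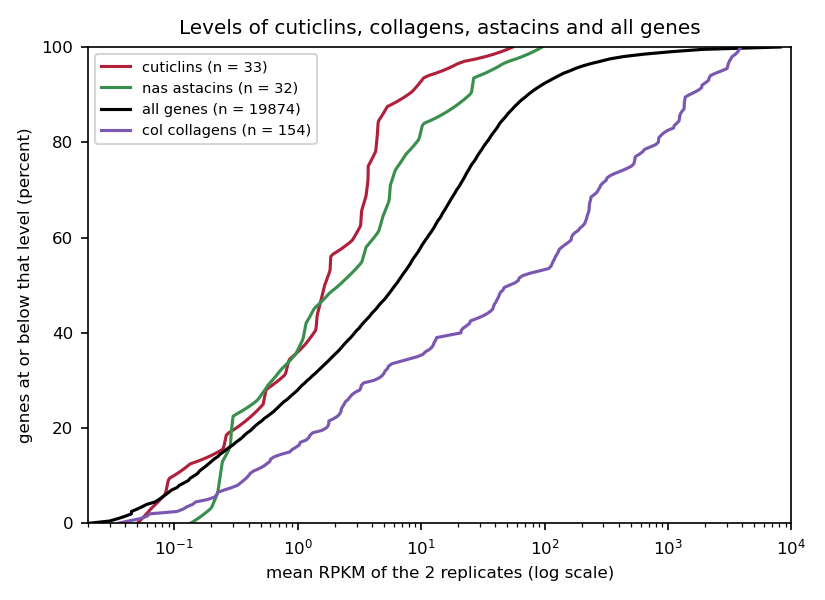
Share of genes at or below each level, against the mean RPKM of both replicates on a log scale, for cuticlins, nas astacins, col collagens and all genes. The cuticlin line lies left of the line for all genes over most of its range, with medians of 1.66 RPKM for cuticlins and 6.17 RPKM for all genes, and ends at 55.3 RPKM.

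The highest member was cut-2. It encodes a short cuticlin protein that, unlike its namesakes, has no ZP domain, and it is known to be cross-linked through dityrosine. It was at 51.98 and 58.67 RPKM, a mean of 55.3 ± 4.73 RPKM (SD, n = 2), above 87.1% of all genes. With about 356 and 557 reads, its intervals of 46.7 to 57.7 and 53.9 to 63.7 RPKM overlap. This gene alone held 36.4% and 37.7% of the family's RPKM. In the WBcel235 annotation it lies on the plus strand of chromosome V from 13414949 to 13416064.

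Next in order was cut-4, a cuticlin gene on chromosome II from 10436136 to 10440087. Its values were 19.3 and 22.84 RPKM (mean 21.1 ± 2.50, SD, n = 2), and its intervals were 17.2 to 21.6 and 20.9 to 24.9 RPKM. The mean of cut-2 was 2.63 times that of cut-4, and their replicate ranges did not overlap. The third was cutl-20, on chromosome I from 963692 to 969457, at 9.46 and 11.85 RPKM. These 3 genes carried 56.5% and 60.0% of the family's RPKM. For cutl-20, 221 bp of exon are shared in the annotation with shc-1 on the same strand, so some of its reads may belong to either gene. Whether the shared bases are coding was not tested.

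Members known from alae and the dauer larva lay under the median gene, as did 29 of all 33 cuticlins, and cut-1 was near 0. cut-1 encodes a ZP protein of the ribbon under the dauer alae. It was at 0.07 and 0.11 RPKM, which is about 1 and 2 reads, under the floor of 3 reads, the number that a count of 0 allows. Its intervals, 0.0019 to 0.41 and 0.013 to 0.39 RPKM, start just above 0 and leave its level uncertain. Whether so few reads came from this gene was not tested. cut-6, which encodes a ZP protein with an additional von Willebrand factor A domain and is needed for the shape and alae of the dauer larva, was at 3.37 and 3.10 RPKM, with about 61 and 78 reads. cut-5, known from the alae of the first larval stage and of the dauer larva, was at 1.76 and 1.55 RPKM. cut-3, known from the alae of the first larval stage, was at 2.03 and 1.63 RPKM. The replicates of cut-3 and cut-5 overlapped each other, and those of cut-6 lay above both. Within the family cut-6 and cut-3 had means above the median member, and cut-5 was the median member at 1.66 RPKM.

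Stage and tissue markers were read beside these levels. Of the dauer collagen genes, col-2 was at 3.77 and 2.71 RPKM and col-40 at 3.24 and 1.95 RPKM. All 4 genes of the adult hermaphrodite list were high, from 718 RPKM for the eggshell gene perm-2 to 3055 RPKM for the yolk protein gene vit-6 (means of both replicates), and the adult cuticle collagen gene col-19 was at 3054 RPKM. All 5 epidermal genes were present, the lowest being the furrow collagen gene dpy-7 at 74.9 RPKM. The part of the stage mixture in the levels of the larval and dauer cuticlins was not tested.

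Below cutl-20 the cutl genes, named for their likeness to cuticlins, formed a graded series. cutl-15 was at 8.19 and 8.72 RPKM, and cutl-3 at 4.83 and 5.83 RPKM. cutl-15 was the last member above the median gene. A group of 8 genes followed between means of 2.77 and 4.49 RPKM, namely cutl-29, cutl-26, cutl-28, cutl-14, cutl-18, cutl-24, cutl-16 and cutl-23. Within it cutl-29 was at 3.80 and 5.18 RPKM, and cutl-24 went the other way, at 4.10 and 3.06 RPKM, so the order of these genes differs between the replicates. A lower group held cutl-12, cutl-21, cutl-11, cutl-10 and cutl-9, with means from 1.15 to 1.86 RPKM and about 15 to 45 reads in a replicate.

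At the low end, 12 members had a mean under 1 RPKM, from 0.85 RPKM for cutl-25 to 0.05 RPKM for cutl-13. cutl-6 straddled that limit, at 1.10 and 0.49 RPKM, on about 13 and 8 reads. cutl-22, cutl-17, cutl-5, cutl-4 and cutl-2 had means from 0.25 to 0.56 RPKM, and cutl-27 was at 0.13 and 0.14 RPKM. cutl-1 and cutl-13 were listed at 0 in replicate 1, where the floor of 3 reads is 0.24 and 0.21 RPKM, and were at 0.17 and 0.10 RPKM in replicate 2. Together with cut-1, the genes cutl-7 (0.05 and 0.08 RPKM) and cutl-13 stayed under the floor of 3 reads in both replicates. The intervals of these genes start just above 0, except for cutl-13 in replicate 1, where it starts at 0, so their levels are uncertain. Whether so few reads came from these genes was not tested.

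**Figure D2:**
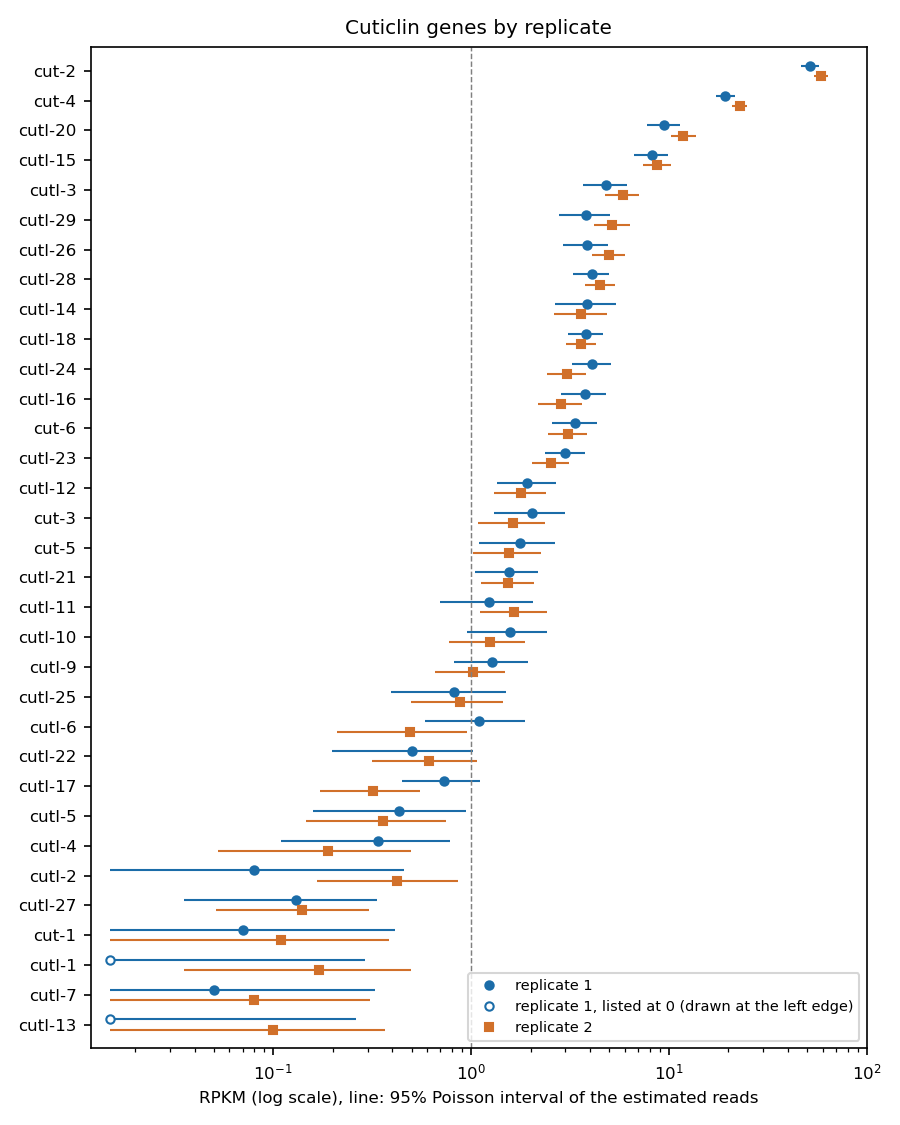
RPKM of each cuticlin gene on a log scale in replicate 1 (circles) and replicate 2 (squares), ordered by mean, with exact Poisson 95% intervals as lines that are cut at the left edge where they reach lower. Open circles stand for values listed at 0, and the dashed line marks 1 RPKM. cut-2, cut-4 and cutl-20 stand to the right, while cut-1 lies among the 4 lowest genes.

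In the order of means, 10 of the 32 pairs of neighbouring genes had replicate ranges that did not overlap. Each of the 4 highest genes, cut-2, cut-4, cutl-20 and cutl-15, was apart from the next by this measure. From cutl-3 to cutl-28 no neighbours were apart, nor from cutl-14 to cut-6, nor from cutl-12 to cutl-9. With 2 values a gene this is only a coarse measure, and counting error was wider: the intervals of cutl-20 and cutl-15 in replicate 1, 7.74 to 11.4 and 6.65 to 9.94 RPKM, overlap although their values are apart.

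No cuticlin had counting intervals that separated the replicates. Of the 21 members with a mean of at least 1 RPKM, 9 were higher in replicate 2 (42.9%), beside 44.2% of all genes at such means. The direction between replicates differed by level, a split noticed after the values were seen and not tested. All 5 cuticlins with a mean of at least 5 RPKM were higher in replicate 2, beside 44% of all genes at such means. Of the 16 between 1 and 5 RPKM, 4 were higher in replicate 2, beside 44.8% of all genes. Of the 12 under 1 RPKM, 8 were, beside 36.8% of all genes at such means. The log2 ratio of RPKM + 1 between replicate 2 and replicate 1 had a median of -0.07 over the 21 members and -0.02 over all 14313 genes tested. It ranged from -0.33 for cutl-24 to 0.36 for cutl-29, and none of the 21 lay beyond 2-fold, beside 0.713% of all genes. The pseudocount of 1 makes the ratio of low genes smaller than the ratio of their RPKM, and members under 1 RPKM do not enter this count. Counting intervals of the replicates overlapped in each of the 33 members, where they did not overlap in 6.06% of all genes with a coding length and in 2.21% of genes with no more reads than cut-2. At the low read numbers of most cuticlins only a large difference would separate the intervals. The levels of the 33 genes gave a Spearman's rho of 0.97 between the replicates, across genes that are not independent replicates.

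**Figure D3:**
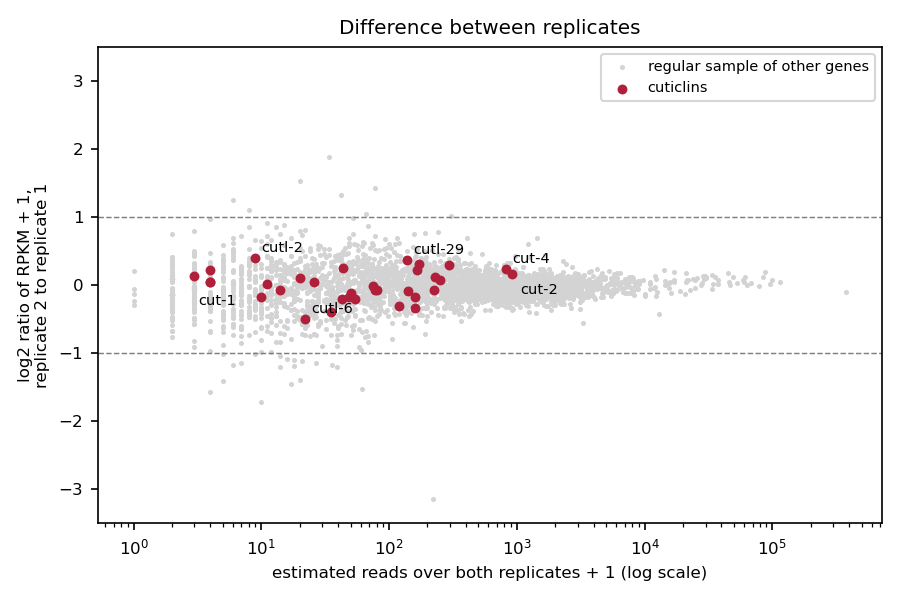
log2 ratio of RPKM + 1 between replicate 2 and replicate 1, against the estimated reads over both replicates plus 1 on a log scale, for cuticlins (dark red) and a regular sample of other genes with a coding length (grey). All cuticlins lie between the dashed lines at 2-fold, from -0.50 for cutl-6 to 0.39 for cutl-2. The pseudocount of 1 shrinks the ratios of low genes, so that cutl-2, at 0.08 and 0.42 RPKM, lies inside these lines.

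The members are spread over the genome and vary in size. By the WBcel235 annotation 9 lie on chromosome II, 6 on I, 5 each on IV, V and X, and 3 on III. The 5 members on X had a median of 1.66 RPKM and the 28 on autosomes 1.62 RPKM. All 5 on X were at a mean of at least 1 RPKM, beside 73.6% of all genes on X, and so were 16 of the 28 on autosomes, beside 73.5% of all autosomal genes. With 5 genes this is a description of those genes. Coding lengths ran from 648 bp in cut-2 to 2910 bp in cutl-27, which are 215 and 969 codons before the stop. The family median was 1338 bp, beside 1014 bp over all genes with a coding length. cut-2 also had the fewest coding exons, 2, where the median member had 8 and cutl-21, cutl-23 and cutl-27 had 16. cut-1 and cut-3 followed with 4 each, though cut-1 was among the lowest genes. Across the 33 members, the level and the coding length had a Spearman's rho of -0.14, given as a description.

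**Figure D4:**
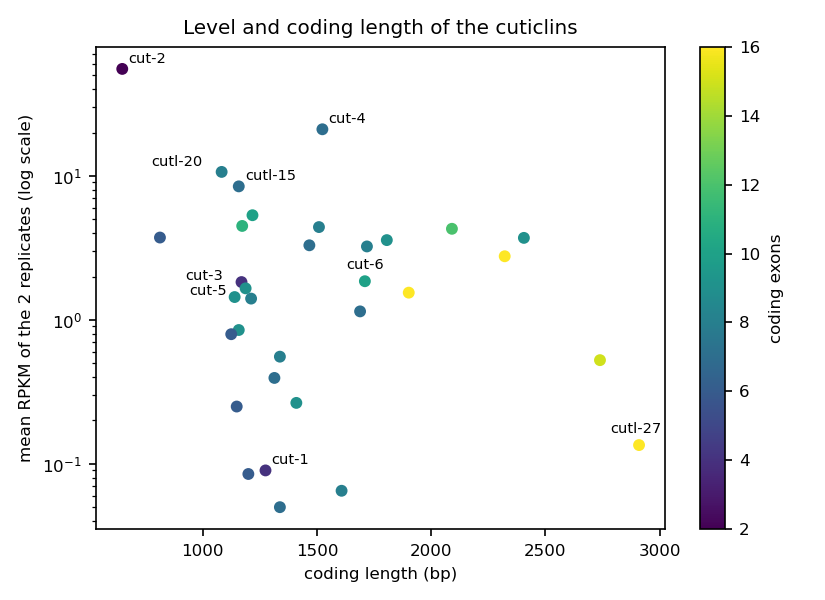
Mean RPKM of both replicates on a log scale against coding length in bp for the 33 cuticlins, coloured by the number of coding exons. cut-2, the shortest at 648 bp, is the highest, while cutl-20 at 1083 bp and cutl-13 at 1338 bp have means of 10.7 and 0.05 RPKM.

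Only 2 pairs of members lay within 50 kb of each other. cut-2 and cutl-1, on opposite strands 8.84 kb apart on chromosome V, had the highest level of the family and one of the lowest, 55.3 and 0.085 RPKM in mean. cutl-26 and cutl-28, on opposite strands 10.4 kb apart on chromosome IV, had close levels, cutl-26 at 3.84 and 4.98 RPKM and cutl-28 at 4.08 and 4.50 RPKM. Exons of 10 members overlap those of another protein-coding gene, 9 of them on the opposite strand. The overlaps ran from 9 bp for cut-3 and cutl-11 to 221 bp for cutl-20. The share of all genes with such overlaps was not calculated. Whether the counting used strand is not given in the sources used here, so reads of such overlaps may belong to either gene.

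Other genes of the apical matrix were compared by level on the same per-length scale. Of 6 further ZP-domain genes, all were at a mean of at least 1 RPKM, with a median of 7.61 RPKM. noah-2 and noah-1, which encode ZP proteins that attach the embryonic epidermis to its first matrix, were the highest, noah-2 at 75.48 and 80.34 RPKM and noah-1 at 56.19 and 59.86 RPKM. Both means were higher than that of each of the 33 cuticlins, though the replicates of noah-1 overlapped those of cut-2. let-653, a ZP gene that shapes narrow tubes, was at 9.67 ± 0.81 RPKM, and fbn-1, a fibrillin-related gene, at 5.55 ± 0.29 RPKM. The dendrite anchor gene dyf-7 and the male ray gene ram-5 were lowest, at 1.49 and 1.29 RPKM in mean, and lay within the middle of the cuticlins.

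Genes with a value in the cross-linking, precuticle, proprotein convertase and transcription factor lists were at higher levels than most of the family. The cross-linking genes had a median of 10.8 RPKM over 4 genes. Among them the dual oxidase gene bli-3, whose enzyme makes the peroxide used for tyrosine cross-links, was at 11.44 and 11.01 RPKM, and the peroxidase gene mlt-7 at 34.29 and 35.46 RPKM. The genes of the oxidase's partners, doxa-1 (listed by its sequence name) and tsp-15, were at 7.90 and 10.5 RPKM in mean. The 6 precuticle genes without a ZP domain, listed for links to the temporary matrix laid down before each cuticle, had a median of 20.8 RPKM. They ranged from let-4 at 2.30 RPKM to the lipocalin gene lpr-3 at 75.5 RPKM. The 4 proprotein convertase genes, a class of enzymes that cut secreted precursors, ranged from 20.4 RPKM for kpc-1 to 58.2 RPKM for bli-4. Whether their enzymes cut cuticlins was not tested. Of 8 epidermal, seam and molting transcription factor genes, 7 had a value, all but lin-29, with a median of 9.79 RPKM, led by the GATA factor gene elt-3 at 25.4 RPKM and with the seam gene ceh-16 lowest at 2.74 RPKM.

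**Figure D5:**
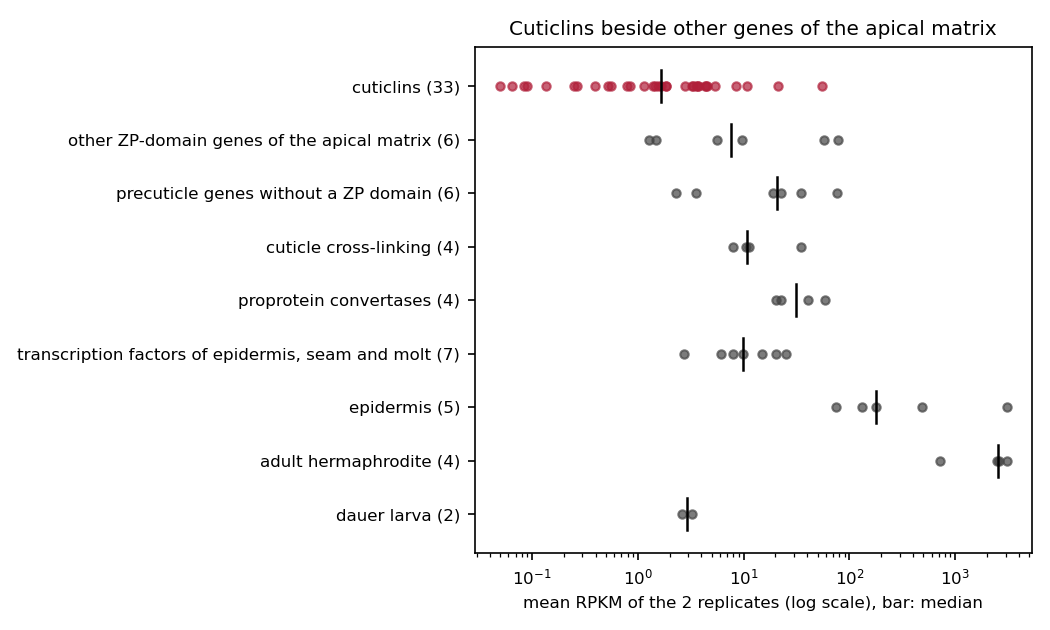
Mean RPKM of both replicates on a log scale for each cuticlin and for each gene of 8 further lists, with the number of genes in brackets and a bar at the median. The cuticlin median of 1.66 RPKM lies left of the medians of all 8 lists, the nearest being the dauer larva list of 2 genes at 2.92 RPKM.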

How the data were processed

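Libraries were made from total RNA with a TruSeq kit, per the labels' protocols. CASAVA 1.8.2, a base calling program, is named in the submitters' processing notes; which genome build, annotation, aligner and counter were used is not given in the sources used here. Per the file headers, the authors' values are RPKM, 1 column a replicate. Digit separators in 205 and 208 values were removed. Of 19990 rows, 104 named by coordinates and 12 with a shared name were left out. Positions, coding length (longest coding sequence with stop) and exons came from WBcel235, release 115.

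Depth was estimated as the value that made the largest share of low values whole. At that depth RPKM times coding length was a whole number of reads, within 0.1 read, for 84.5% of 2876 low values in replicate 1 and 86.4% of 1706 in replicate 2. These shares are the highest over the depths searched, whose medians were 15.5% and 16.2%. With exonic length the highest shares were 42.6% and 46.3%. A read here is 1 counted unit, which could be a read pair.

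With 1 group of 2 samples no test between groups was possible, and no p-value was calculated. Every family member is named by rule, other genes from short lists. Members and lists were chosen with earlier results of these data known. The scripts were tested on simulated data. Software was pandas 2.3.3, numpy 2.4.6, matplotlib 3.10.9 and scipy 1.17.1 under Python 3.11.15.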

Additional observations from a re-analysis of the deposited data

Results flagged for a closer look

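Signal for cutl-8 lay only in rows labelled with coordinates, which entered no comparison. The rows were matched to annotated transcripts by an equal coding span, 5032 bp for ZK265.8a.1 and 1357 bp for ZK265.8b.1. Both ends of each row were shifted by 6 bp from the annotated ends, with row starts counted from 0. The longer was at 0.81 and 0.47 RPKM in replicates 1 and 2, about 16 and 13 reads, above the floor of 3 reads. The shorter was at 0.37 and 0.26 RPKM, about 2 reads in each replicate, under that floor. The shorter span lies within the longer.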

How the results depend on the processing

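No paired analysis was possible because both samples belong to 1 group. The 21 cuticlins at a mean of at least 1 RPKM (63.6%, beside 72% of all genes) became 25 at a limit of 0.5 (75.8%, beside 78.7%) and 14 at a limit of 2 (42.4%, beside 64.5%), so the distance from the share of all genes depends on the limit. The 3 at a limit of 10 RPKM became 5 at a limit of 5 (15.2%, beside 53.1%). That count was also 2 at a limit of 20, 2 when both replicates had to reach 10 RPKM, and 2 without replicate 2. The median level of 1.66 RPKM was 3.58 RPKM over members with a mean of at least 1 RPKM, and from 1.63 to 1.76 RPKM without either replicate. The share of the 3 highest members, 58.3% of the family's RPKM, was 45.8% in estimated reads, which do not divide by length, and from 56.5% to 60.0% without either replicate. The median log2 ratio between replicates, -0.07, turned to 0.23 over members with a mean of at least 5 RPKM and to 0.013 with no filter, so its direction depends on the filter; it kept its sign under other pseudocounts and scalings. No cuticlin passed 2-fold, and no intervals separated, in the alternatives that changed 1 choice. With no filter and a pseudocount of 0.1 together, an alternative chosen after seeing the data, 3 passed 2-fold, beside 11.6% of all genes: cutl-6, higher in replicate 1, and cutl-1 and cutl-2, higher in replicate 2. These rest on 0 to 13 reads a replicate. Depth limits the low members most: 5 were under 3 reads in replicate 1 and 3 in replicate 2.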
